A study of Mus musculus with 36 samples.

Results

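The MPP1 fraction of mouse bone marrow was compared between 2 ages by ATAC-seq. In this assay an enzyme cuts accessible DNA and tags it for sequencing, so that open stretches appear as peaks of reads. Its members were the 4 MPP1 libraries of the 36 libraries in the series, 2 from young mice (10 weeks) and 2 from aged mice (20 months), chosen by their labels alone. All were from female C57BL/6 mice without an engineered allele or a treatment, with 20000 cells per library. MPP1 was gated as cells positive for CD34, CD150, Sca-1 and c-kit and negative for Flt3, CD48, IL-7Rα and lineage markers (Lin). The study describes pooled marrow sorted in duplicate and calls its replicates biological, and whether the MPP1 duplicates of an age came from separate pools is not given in the sources used here, so the spread between them need not hold the variation between mice. Mice were purchased young and the aged ones were then kept in the study's facilities, so age and time in these facilities cannot be told apart.

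MPP1 cells are the multipotent progenitors that lie closest to the hematopoietic stem cell (HSC). They share most of its surface markers but have gained CD34, still contribute to all blood lineages after transplantation, and renew themselves only for a limited time. With age the stem cell compartment is known to grow, to lean towards platelets and myeloid cells, and to give fewer lymphocytes. Open chromatin away from promoters marks enhancers, whose use differs between cell states more than that of promoters does.

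The deposited values were peak lists, 1 per library, and held no read counts. Peaks that overlapped by at least 1 bp in the 4 MPP1 libraries were merged into a catalogue of 49104 regions on the main chromosomes. A region was termed aged-only when it was called in both aged libraries and in neither young one, young-only in the opposite case, and shared when called in all 4. With 4 libraries there are 2 other ways to set 1 pair against the other pair, replicate 1 of both ages against replicate 2 of both ages, and young replicate 2 with aged replicate 1 against the other two. These groupings mix the ages and give the level of difference seen without an age contrast.

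Below are 150 bases around the summit of 5 regions that the results turn on (GRCm38, plus strand), 4 of them aged-only and the last one young-only. Rfx8 had the highest rank among aged-only regions, Acadm, Tap2 and Sumf1 were called in most aged and few young libraries of the other fractions, and Cxcr4 encodes the chemokine receptor that holds stem cells in the marrow. Capitals mark matches to short consensus words of transcription factors, the CTCF word AGNGGGC and the AP-1 word TGANTCA in Rfx8, the E-box word CAGCTG and the CRE word TGACGTCA in Acadm, and the CTCF word and the interferon-stimulated response element (ISRE) word GAAANNGAA in Sumf1. Tap2 and Cxcr4 held no match to the words that were marked, which leave out the short MAF, SP/KLF and NFY words. The windows lie at chr1:39698568-39698717 (Rfx8), chr3:153929615-153929764 (Acadm), chr17:34218795-34218944 (Tap2), chr6:108164994-108165143 (Sumf1) and chr1:128675721-128675870 (Cxcr4).
Rfx8: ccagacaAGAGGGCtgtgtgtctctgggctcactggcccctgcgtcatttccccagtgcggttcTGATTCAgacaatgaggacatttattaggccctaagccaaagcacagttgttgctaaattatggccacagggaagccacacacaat
Acadm: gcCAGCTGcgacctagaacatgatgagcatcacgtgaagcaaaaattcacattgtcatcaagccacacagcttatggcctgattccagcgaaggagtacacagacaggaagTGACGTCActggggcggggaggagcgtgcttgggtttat
Tap2: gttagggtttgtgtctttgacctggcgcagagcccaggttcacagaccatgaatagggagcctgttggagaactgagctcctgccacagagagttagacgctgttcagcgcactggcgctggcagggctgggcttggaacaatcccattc
Sumf1: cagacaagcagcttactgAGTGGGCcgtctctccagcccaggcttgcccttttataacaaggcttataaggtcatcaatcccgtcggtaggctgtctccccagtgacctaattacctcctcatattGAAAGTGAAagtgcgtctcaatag
Cxcr4: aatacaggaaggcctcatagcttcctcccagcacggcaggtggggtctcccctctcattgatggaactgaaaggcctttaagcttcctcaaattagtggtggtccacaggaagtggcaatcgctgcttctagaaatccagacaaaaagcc

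The 4 libraries were of like depth and differed in their number of peaks as much within as between ages. Young replicates 1 and 2 had 33018 and 36377 peaks, and aged replicates 1 and 2 had 40095 and 34701. Aged replicate 1 stood highest and the other aged library lay between the young ones. The means were 34698 ± 2375 (SD, n = 2) in young and 37398 ± 3814 (SD, n = 2) in aged, a difference of 2701 peaks (two-sided exact permutation test, p = 0.667, where 2 against 2 libraries allow no p under 0.333). With 1 library left out at a time the difference was 3.5 peaks (without aged replicate 1), 1021 (without young replicate 1), 4380 (without young replicate 2) and 5398 (without aged replicate 2). The background of reads per base pair that could be recovered from the peak statistics varied by 0.0580% (SD over mean) between the 4 libraries, the weakest summits rested on 7 overlapping reads in each, and the median summit with a -log10 p-value under 100 rested on 21 or 22.

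The surface genes of the gate were checked against the peaks. Kit, Cd34 and Flt3 had a peak at a transcription start site (TSS) in all 4 libraries, with fold enrichments over background of 5.15 to 8.19 at Kit, 6.01 to 8.33 at Cd34 and 14.5 to 18.1 at Flt3. Flt3 protein is selected against in this gate. Slamf1, which encodes CD150, had its nearest region 4815 bp from a TSS. Ly6a, which encodes Sca-1 and is selected for, was nearest to no region, and the closest one lay 8646 bp from its TSS. For Cd48, selected against, that distance was 7299 bp. Of the markers of other cell types, the B cell genes Cd79a and Ms4a1, the T cell genes Cd3e, Cd4 and Cd8a, the natural killer gene Ncr1, the globin gene Hba-a1 and the neutrophil genes S100a8 and Ly6g were nearest to no region of the catalogue. Of 15 such markers, 5 had regions, 22 in all, and 0 of these were aged-only and 0 young-only. Those with a peak near a TSS included Kdr, Cxcl12 and Col1a1. No region was nearest to the Y-linked single-copy genes Kdm5d, Uty, Ddx3y and Eif2s3y.

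The first question was whether MPP1 gained or lost open regions with age. Aged-only regions numbered 1723 (3.51% of the catalogue) and young-only regions 784 (1.6%), 2507 together (5.11%), whereas 24601 regions were shared. The 2 groupings that mix the ages gave 1921 regions (3.91%) and 2117 regions (4.31%), so the age grouping exceeded their mean of 2019 by a factor of 1.24. At a -log10 q-value of at least 10 this factor was 1.02. With 3 groupings in all there is no test of this factor, and most of the one-sided regions of the age grouping had their equal in number in groupings that mix the ages. Both counts rose when 1 library was left out, since 1 call then stands for an age. Their order turned without young replicate 1 (2907 aged-only and 3844 young-only) and held without any other library. The excess of aged-only over young-only regions went with the number of peaks. When each library was reduced to its 33018 strongest peaks, 1234 regions were aged-only (2.75% of 44857) and 1149 young-only (2.56%), and the factor was 1.27. The pairs behind these counts are in the plot of regions called in exactly 2 libraries.

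**Figure D1:**
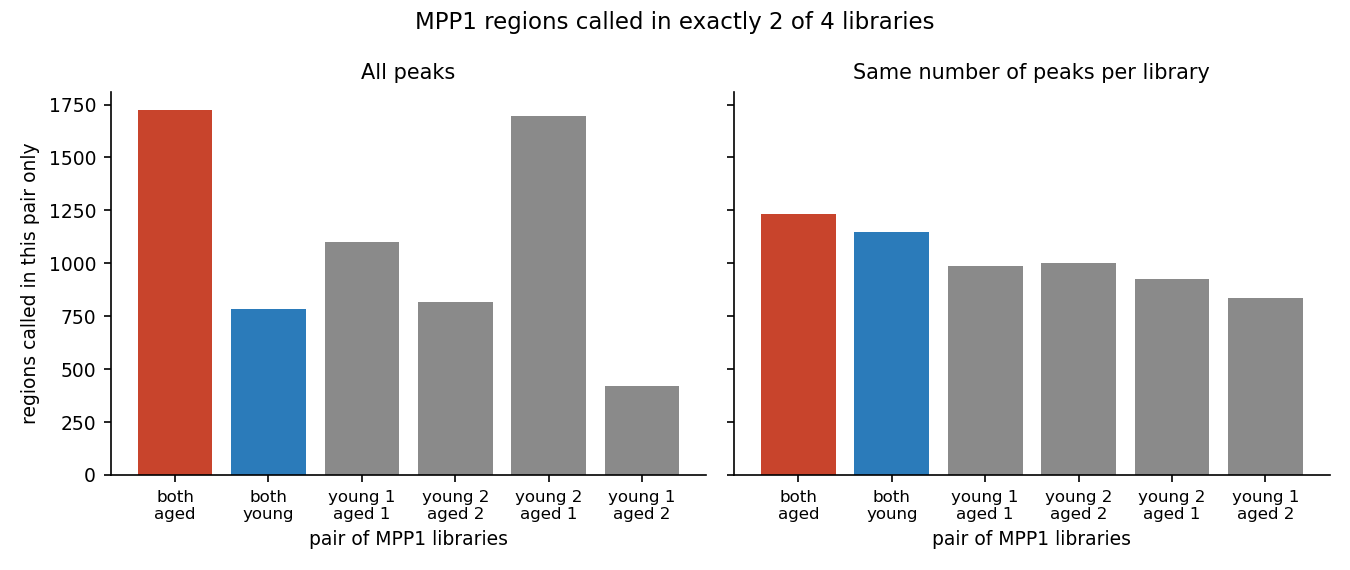
Number of MPP1 regions called in exactly 2 of the 4 libraries (vertical axis), by pair (horizontal axis), with all peaks on the left and with the 33018 strongest peaks of each library on the right. Red and blue bars are the aged and the young pair, and grey bars are pairs that mix the ages. On the left the aged pair (1723 regions) and the pair of young replicate 2 with aged replicate 1 (1698) stand highest, and on the right the aged (1234) and young (1149) pairs exceed the mixed ones (838 to 1003).

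The overlap of calls was compared for all 6 pairs of libraries. The share of regions called in both of a pair among those called in either was 0.697 for the young pair and 0.682 for the aged pair, against 0.672 to 0.684 for the 4 pairs of different age. Fold enrichment at shared regions, on a log2 scale, had a Pearson correlation across regions of 0.791 between the young libraries and 0.773 between the aged ones, against 0.773 to 0.795 between libraries of different age. The correlations are across 24601 regions, which are not independent replicates, and describe these libraries.

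One-sided regions were weak peaks away from promoters, whichever grouping gave them. Of the aged-only regions 10.6% lay at a promoter (from 1000 bp before a TSS to 100 bp after it), of the young-only regions 12.8% and of the regions of mixed-age pairs 10.9%, against 34.2% of shared regions. Introns held 39.3% of aged-only and 35.7% of young-only regions, and 44.9% and 45.5% lay between genes. Their calls had a median fold enrichment of 6.33 (aged-only) and 6.22 (young-only) and rested on a median of 13 reads at the summit, against 9.85 and 28 in shared regions. In 450 aged-only regions (26.1%) and 195 young-only regions (24.9%) the weaker of the calls had a -log10 q-value under 5, not far above the limit of 3 used in calling, so a region just inside the limit in one library can lie just outside it in another. The median width was 294 bp for aged-only, 288 bp for young-only and 496 bp for shared regions.

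The strongest aged-only regions were led by an intron of Rfx8, a member of the RFX family of transcription factors. It was called in aged replicates 1 and 2 at fold enrichments of 18.4 and 14.5, with 38 and 33 reads at the summit, and in neither young library. In the other fractions it was called in 11 of 16 aged and 6 of 16 young libraries. The next strongest region of unique sequence lay at -62.3 kb from the TSS of Nfasc, which encodes a cell adhesion molecule of neurons, with 14.6 and 11.5. Outside MPP1, 13 aged and 5 young libraries had it. An intronic region of Acadm, the medium-chain acyl-CoA dehydrogenase of mitochondrial fatty acid oxidation, had 15.2 and 11.4. All 4 aged HSC libraries and 0 of 4 young ones had this peak.

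The region nearest to Tap2, a subunit of the peptide transporter that loads MHC class I molecules, had fold enrichments of 12.2 and 10.6 in aged replicates 1 and 2. It was called in 4 of 4 aged and 1 of 4 young HSC libraries and in 5 of 6 aged and 0 of 6 young libraries of MPP2 to MPP4. Intronic regions of Slc41a2 (a magnesium transporter) and Haao (in Mta3) behaved otherwise, with 14 and 11 aged libraries and 12 and 12 young libraries of other fractions, so their absence from young MPP1 was not shared by other young fractions. Other members of the 12 strongest were Farp1, Dchs2, Tmprss11c, Olfr1066, Gm17555 (in Atp8b4) and Gm21103, with fold enrichments of 11.1 to 16.9. The 60 bases at the summit occur 12 times on the main chromosomes for Gm21103 and 2 times for Olfr1066, so that reads there cannot be placed with certainty, and once for the other 10.

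Among the strongest young-only regions, the one nearest to Gm21860 on chromosome Y ranked first, with fold enrichments of 12.8 and 12.6 in young replicates 1 and 2. Its summit bases occur 4 times in the genome, and it heads this list on Y although the mice were female. The region near Atp5o, a subunit of mitochondrial ATP synthase, had 10.2 and 12.02. The region at -83.5 kb from the TSS of Cxcr4 had 9.21 and 8.88. In the other fractions this Cxcr4 region had a peak in 9 of 16 young and 9 of 16 aged libraries and in none of the 8 HSC libraries, so the difference seen in MPP1 had no counterpart there. In an intron of Cacna1d, a calcium channel subunit, a region with 9.21 and 10.8 was called in no other library of the series. An intronic region of Dnm3 (nearest to 4930558K02Rik) with 9.75 and 8.88 was called in 4 young and 0 aged libraries of other fractions. The other members were Olfr1274-ps, 5530401A14Rik (in Asic2), Gramd3, Unc5b, Uggt2, Gata6 and Gm47283 (summit bases that occur 2 times), with fold enrichments between 8.36 and 13.002.

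**Figure D2:**
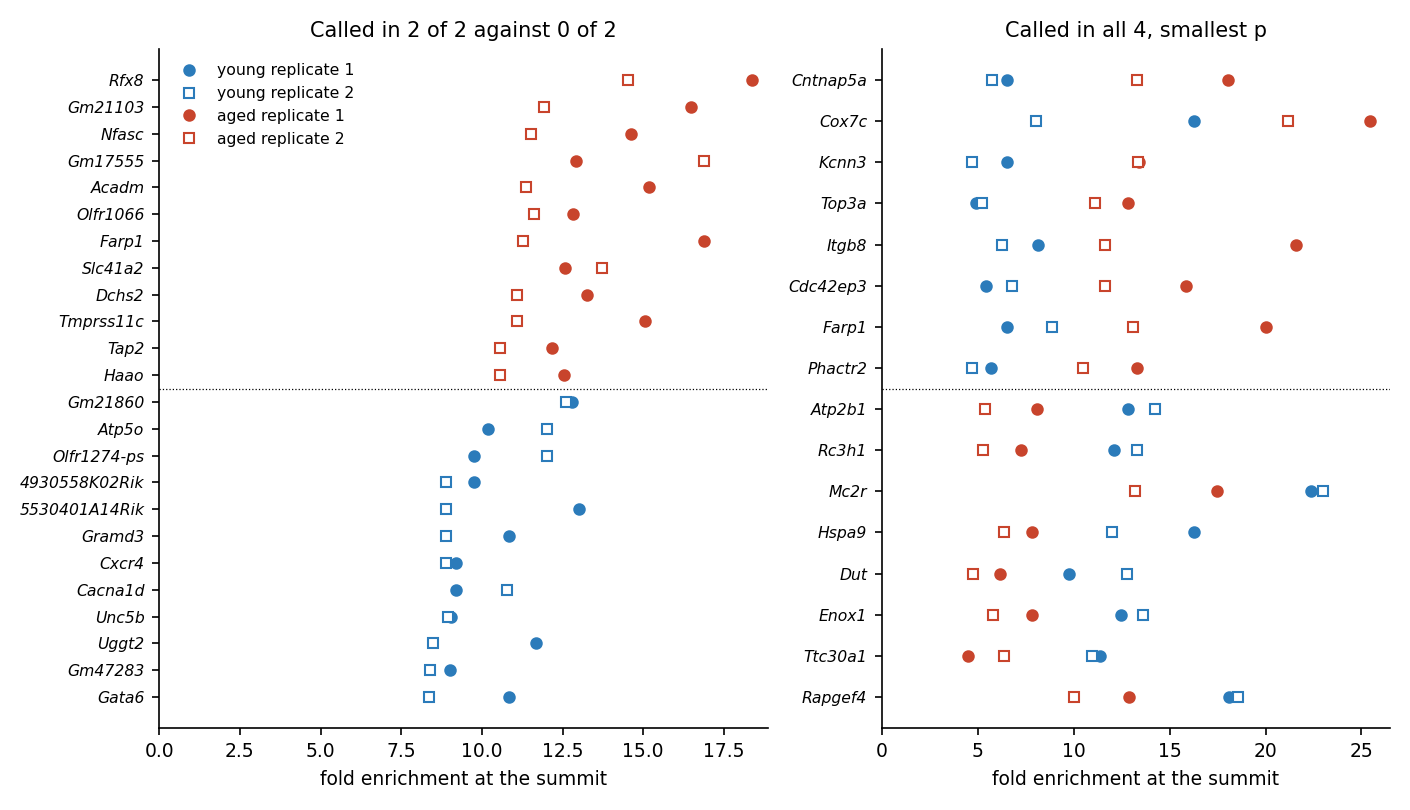
Fold enrichment at the summit (horizontal axis) in each MPP1 library for the named regions, by nearest gene (vertical axis). Blue is young, red is aged, filled circles are replicate 1 and open squares replicate 2, and no symbol means no peak. On the left are the 12 strongest aged-only regions (above the dotted line, 10.6 to 18.4) and the 12 strongest young-only regions (8.36 to 13.002). On the right are the 8 shared regions per direction with the smallest p. There both aged values lie above (top) or below (bottom) both young values. The ages did not overlap at 32.6% of all shared regions.

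One-sided regions were counted over the gene lists, without a test between lists. The catalogue held 3.51% aged-only regions, 1.6% young-only regions and 8.22% from the 2 mixed-age groupings together. Lymphoid genes were the list with the largest share of aged-only regions. Of 76 regions nearest to them, 10 were aged-only (13.2%, against 3.51% in the catalogue), 1 was young-only (1.32%) and 4 were from mixed-age pairs. The aged-only ones lay at Gata3 (4), a T cell regulator, Satb1 (3), a chromatin organiser of lymphoid development, Ikzf1, the Ikaros factor, Dntt, the terminal transferase of antigen receptor joints, and Ccr9, a thymus homing receptor. The young-only one lay at Gata3 as well. Fold enrichments of the aged-only ones were 4.95 to 9.775, and all but the one in Dntt lay more than 10 kb from the TSS they are assigned to, 3 of those at Gata3 at 358.3 to 1204.5 kb, so that the nearest gene need not be the one concerned.

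In the other fractions the number of aged and of young libraries that called each of these 10 aged-only regions differed by at most 2 of 16. The Dntt region, 2.7 kb inside the gene, had 5.72 and 7.14 in aged replicates 1 and 2 and had a peak in 4 of 6 young and 2 of 6 aged libraries of MPP2 to MPP4. The Ikzf1 region, at -18.4 kb from its TSS, had 4.95 and 7.36 and was called in 3 young and 4 aged HSC libraries. The Gata3 region at 76.8 kb had 7.12 and 5.53 and had a peak in 6 of 6 young and 6 of 6 aged libraries of MPP2 to MPP4.

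Megakaryocyte and platelet genes had 4 aged-only and 0 young-only regions among 48 (8.33% and 0%), with 3 from mixed-age pairs. They were the promoters of Selp, which encodes P-selectin and is a known marker of aged HSCs, and of Tubb1, the platelet tubulin, and regions near Gp9, a subunit of the von Willebrand receptor, and Zfpm1, which encodes the GATA1 partner FOG1. The Selp promoter had 6.64 and 6.50 in aged replicates 1 and 2 and had a peak in 3 HSC libraries of either age. Tubb1 had 5.99 and 6.46, Gp9 5.77 and 5.11, and the Gp9 region, which lies in a UTR of Rab43, was called in 1 young and 4 aged HSC libraries. The Zfpm1 region had 5.58 and 5.81 and was called in 1 young and 0 aged HSC libraries, and in 4 young and 2 aged libraries of all other fractions.

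The list of HSC ageing genes had 2 aged-only regions, at Selp and in an intron of Wwtr1 (the transcriptional coactivator TAZ), and 1 young-only region, far upstream of Alcam, among 102. These shares, 1.96% and 0.980%, lay below the 3.51% and 1.6% of the catalogue, and 9 regions were from mixed-age pairs. The Wwtr1 region had 7.24 and 7.41 in aged replicates 1 and 2. It was called in 4 of 4 aged and 1 of 4 young HSC libraries and in 5 of 6 aged and 0 of 6 young libraries of MPP2 to MPP4, which made it the list region with the most uneven calls by age. Stem cell transcription factors had 8 aged-only regions (3.83%), among them those at Mecom (2), Myc, Spi1, Lmo2 and Prdm16, and 5 young-only regions (2.39%), among them those at Mecom, Myc, Lmo2 and Tal1, of 209 in all. Mecom, Myc and Lmo2 thus had regions of both kinds. Of the 209, 23 were from mixed-age pairs.

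Stress and inflammatory signalling genes had 6 aged-only and 6 young-only regions among 151 (3.97% each, against 3.51% and 1.6% in the catalogue), with 7 from mixed-age pairs. The aged-only ones lay at Tnfaip3 (2), an inhibitor of NF-kB, Nfkbia, Socs3, Egr1 and Jun, and the young-only ones at Atf3, Nfkb1, Nr4a1, Fosb, Socs3 and Jun. The Tnfaip3 region 2.4 kb inside the gene had 7.34 and 6.36 in aged replicates 1 and 2 and was called in 6 of 6 aged and 3 of 6 young libraries of MPP2 to MPP4. The Atf3 region, 1.8 kb inside the gene, had 5.80 and 5.75 in young replicates 1 and 2 and was called in 7 young and 1 aged libraries of the other fractions. Atf3 encodes a stress-induced factor of the ATF family.

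Interferon response genes had 2 aged-only regions, near Irf2 and Socs1, and 1 young-only region, also at Irf2, among 85 (2.35% and 1.18%, against 3.51% and 1.6% in the catalogue). The aged-only Irf2 region had 8.55 and 6.25 and was called in 14 aged and 8 young libraries of other fractions. TGF-beta signalling genes had 5 aged-only regions (2 at Id2, and Id3, Ltbp1 and Smad3) and 1 young-only region (Id2) among 159 (3.14% and 0.629%). Cell cycle genes had 1 aged-only region (Ccnd2) and 3 young-only regions (Ccnd2, Cdk6 and Rb1) among 107 (0.935% and 2.80%), and niche and adhesion genes had 3 of each among 131 (2.29%), the young-only ones all near Cxcr4 and the aged-only ones near Itga4 (2), the alpha chain of VLA-4, and Angpt1. Myeloid genes had 0 aged-only and 1 young-only region (Cebpb, 1.72%) among 58, erythroid genes 0 of each among 13, and the surface genes of the gate 1 aged-only region, 179.5 kb from Kit, among 27. Regions from mixed-age pairs numbered 10 (interferon response), 11 (TGF-beta signalling), 11 (cell cycle), 8 (niche and adhesion), 5 (myeloid), 0 (erythroid) and 1 (surface genes).

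Genes nearest to 4 or more one-sided regions were few. Egln3, an oxygen-sensing prolyl hydroxylase, Gata3 and Rapgef2, an activator of the GTPase Rap, had 4 aged-only regions each, out of 16, 19 and 34 regions in the catalogue. Rapgef2 also had 3 young-only regions and Gata3 1, and Egln3 had 0. The single gene with 4 or more young-only regions was Pls3 on chromosome X, with 9 of 16.

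The words of transcription factors were counted in each group of regions. The SP/KLF word GGGCGGG was found in 8.36% of aged-only, 10.5% of young-only, 8.52% of mixed-age and 15.1% of all regions. In the 200 bp around the summit, the ISRE word GAAANNGAA was found on either strand in 9.69% of aged-only, 7.65% of young-only, 7.80% of mixed-age and 7.22% of all regions. The GATA word AGATAA was found in 13.1%, 10.3%, 11.05% and 9.91%, and the RUNX word TGTGGTT in 12.3%, 7.78%, 10.7% and 10.2%. The CRE word TGACGTCA, which ATF and CREB factors bind and which the Acadm sequence above holds, was found in 0.638% of aged-only, 0.765% of young-only, 0.619% of mixed-age and 1.10% of all regions. The MAF word TGCTGA was found in 18.5%, 16.6%, 16.7% and 16.5%, and the NFY word CCAAT in 19.6%, 16.8%, 20.9% and 22.04%. Aged-only regions held the ISRE, GATA, RUNX and MAF words in 1.58 to 2.01 percentage points more regions than mixed-age pairs did, the largest differences in that direction. Other words had lower shares in aged-only than in mixed-age regions, with differences of -1.40 (HOX), -1.34 (NFY), -0.85 (MEIS), -0.76 (AP-1) and -0.13 points (STAT) among them. These shares are descriptions without a test, over 20 words searched. Mean GC content in the same windows was 51.3% in aged-only, 52.9% in young-only, 51.5% in mixed-age and 54.2% in all regions. The shares of words were not adjusted for it.

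The second question was whether regions open at both ages changed in strength. Each shared region was ranked by fold enrichment within its library. The difference in percentile between ages had an SD over regions of 13.9 percentage points, and the groupings that mix the ages gave 14.4 and 13.3. Differences beyond 25 points were found at 2028 regions (8.24%) between ages and at 2218 (9.02%) and 1732 (7.04%) in the other groupings. The spread between ages thus lay between those of the groupings without an age contrast.

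**Figure D3:**
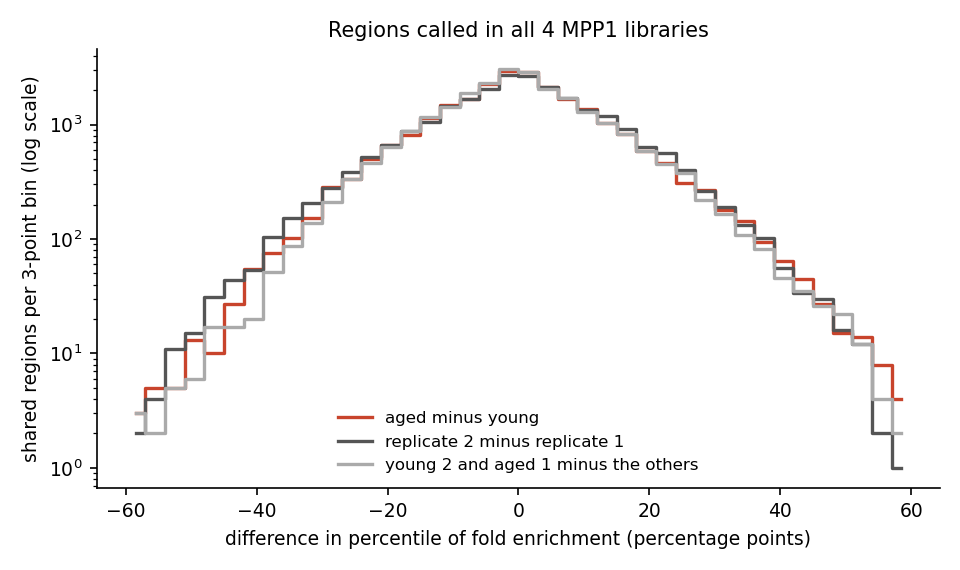
Shared MPP1 regions by their difference in percentile of fold enrichment (horizontal axis, percentage points, 3-point bins), with the number of regions on a log scale (vertical axis). Red is aged minus young, and dark and light grey are the groupings that mix the ages. The 3 curves lie on each other, with SDs of 13.9, 14.4 and 13.3 points.

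In limma on quantile-normalized log2 fold enrichment, 0 of 24601 shared regions (0.0%) passed an adjusted p of 0.05 after Benjamini and Hochberg. At an unadjusted p under 0.05 there were 1236 regions (5.02%), of which 666 were higher in aged (2.71%) and 570 lower (2.32%). The same fit gave 1617 regions at that level for replicate 2 against replicate 1 and 829 for the crossed grouping, with 0 past the adjusted threshold in either. With the replicate number as a block, 3 regions passed, all higher in aged, nearest to Cntnap5a, Cox7c and Tprg, the last of which was named after its value was seen. Leaving out 1 library gave 10 regions (without young replicate 1), 1 (without young replicate 2), 6 (without aged replicate 1) and 19 (without aged replicate 2), where the lone sample of an age is taken to vary as the other pair does.

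The shared regions with the smallest p were followed as values. Nearest to Cntnap5a, a neuronal adhesion gene whose TSS lies far off (-1645.1 kb), fold enrichment was 6.50 and 5.75 in young replicates 1 and 2 and 18.1 and 13.3 in aged replicates 1 and 2. Both aged values lay above both young ones, a log2 difference of 1.30 ± 0.25 (SE), with an adjusted p of 0.599 in limma. A choice by the smallest p favours such regions. Of all 24601 shared regions, 32.6% had no overlap between the ages. The replicate and crossed groupings gave 36.2% and 31.1%. The like share over all regions in HSC libraries is not given here. In HSC libraries, which were not used to choose it, the same region had 7.88 to 13.6 in the 4 young and 16.4 to 19.6 in the 4 aged libraries, so the groups did not overlap there either.

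Near Cox7c, a subunit of cytochrome c oxidase, values were 16.3 and 8.05 in young and 25.4 and 21.1 in aged MPP1, a log2 difference of 0.98 ± 0.22 (SE). Without young replicate 2 it was 0.49 and without young replicate 1 it was 1.47. In HSC libraries they were 14.2 to 19.4 in young and 21.8 to 27.1 in aged, again without overlap. At the promoter of Kcnn3, a calcium-activated potassium channel, young MPP1 had 6.50 and 4.70 and aged MPP1 13.4 and 13.3. In HSC libraries this promoter had 9.19 to 10.9 in young and 7.02 to 9.81 in aged, so the difference was not found again. The other regions higher in aged were at Top3a, Itgb8, Cdc42ep3, Farp1 and Phactr2, with log2 differences of 1.05 (Farp1) and more, and their HSC values overlapped between the ages.

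Regions lower in aged were led by one at -133.0 kb from the TSS of Atp2b1, a plasma membrane calcium pump, with 12.8 and 14.3 in young and 8.10 and 5.39 in aged replicates 1 and 2, a log2 difference of -1.09 ± 0.26 (SE, adjusted p = 0.599 in limma). HSC values there overlapped, 6.12 to 12.5 in young and 4.66 to 13.98 in aged. Near Rc3h1, the RNA-binding repressor Roquin-1, young MPP1 had 12.1 and 13.3 and aged MPP1 7.25 and 5.28, and HSCs had a peak in 3 of 4 young (10.2 to 17.2) and 2 of 4 aged libraries (7.82 and 9.67). The region near Mc2r, with 22.4 and 23.0 in young and 17.5 and 13.2 in aged MPP1, had 19.4 to 28.5 in young and 11.5 to 17.6 in aged HSCs, without overlap. The others were Hspa9, Dut (in Fbn1), Enox1, Ttc30a1 (in Pde11a) and Rapgef4, with log2 differences of -0.74 to -1.10.

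The third question was whether the one-sided MPP1 regions followed age in libraries that did not choose them. In each library of another fraction the share of aged-only or young-only regions that was called was compared with the share of the 4038 regions of mixed-age pairs, which have the same number of calls in MPP1. Of the 1723 aged-only regions the 4 young HSC libraries called 37.7%, 45.2%, 20.7% and 22.3%, which differed from the share of mixed-age regions by -3.76, -6.42, -2.72 and -2.74 percentage points. The 4 aged HSC libraries called 38.4%, 43.6%, 42.4% and 39.9%, which was 9.27, 12.4, 9.56 and 8.45 points more. All aged HSC libraries lay above all young ones, and the difference was 13.8 points (two-sided exact permutation test of 8 libraries, p = 0.0286, the smallest they can give). Without the subtraction the shares of the ages overlapped, with a difference of 9.62 points (exact permutation p = 0.257). Without aged MPP1 replicate 2 in the choice of regions the difference was 6.93 points at the same p.

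Young-only regions went the other way in HSCs. Relative to mixed-age regions, the values were 2.91, 1.68, 1.88 and 2.08 points in the 4 young HSC libraries and -1.85, -5.77, -3.53 and -3.797 points in the 4 aged ones. Aged minus young was -5.87 points (exact permutation test, p = 0.0286), -9.33 points when aged MPP1 replicate 1 was left out of the choice of regions, and -8.90 points when only peaks with a -log10 q of at least 10 were kept. Without the subtraction the shares overlapped (-10.1 points, exact permutation p = 0.400). HSC replicates 1 and 2 and HSC replicates 3 and 4 differed in their number of calls in young mice, and within each of these pairs the differences were 15.9 and 11.7 points for aged-only and -6.10 and -5.64 points for young-only regions.

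MPP2, MPP3 and MPP4, the megakaryocyte- and erythroid-, myeloid- and lymphoid-biased progenitors, followed with smaller values for aged-only regions. Aged minus young came to 7.15 points for MPP2, to 4.72 for MPP3 and to 5.35 for MPP4. Their mean was 5.74 (exact permutation of ages inside each fraction, p = 0.00926, the lowest possible), and without the subtraction 3.42 points (exact permutation p = 0.472). For young-only regions it was -8.01, -4.61 and -5.30 points, with a mean of -5.98 (exact permutation p = 0.00926). In GMPs, MEPs and CLPs, the granulocyte-macrophage, megakaryocyte-erythrocyte and common lymphoid progenitors, aged-only regions had a mean of 1.41 points (exact permutation p = 0.00926, but 0.0926 at a -log10 q-value of at least 10 and 0.519 without the subtraction). Young-only regions had one of -0.80 (exact permutation p = 0.130, but 0.0463 without aged GMP replicate 1). At a -log10 q-value of at least 10 the young-only mean was -0.26 (exact permutation p = 0.620). These values and 2 more on shared regions make 8 tests, with adjusted p of 0.0247 to 0.130. Whether the differences in HSCs, MPP2 to MPP4 and the oligopotent fractions differ from each other was not tested. If fractions of 1 age were sorted from the same pool of marrow, their libraries are not independent and these p-values are too small.

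**Figure D4:**
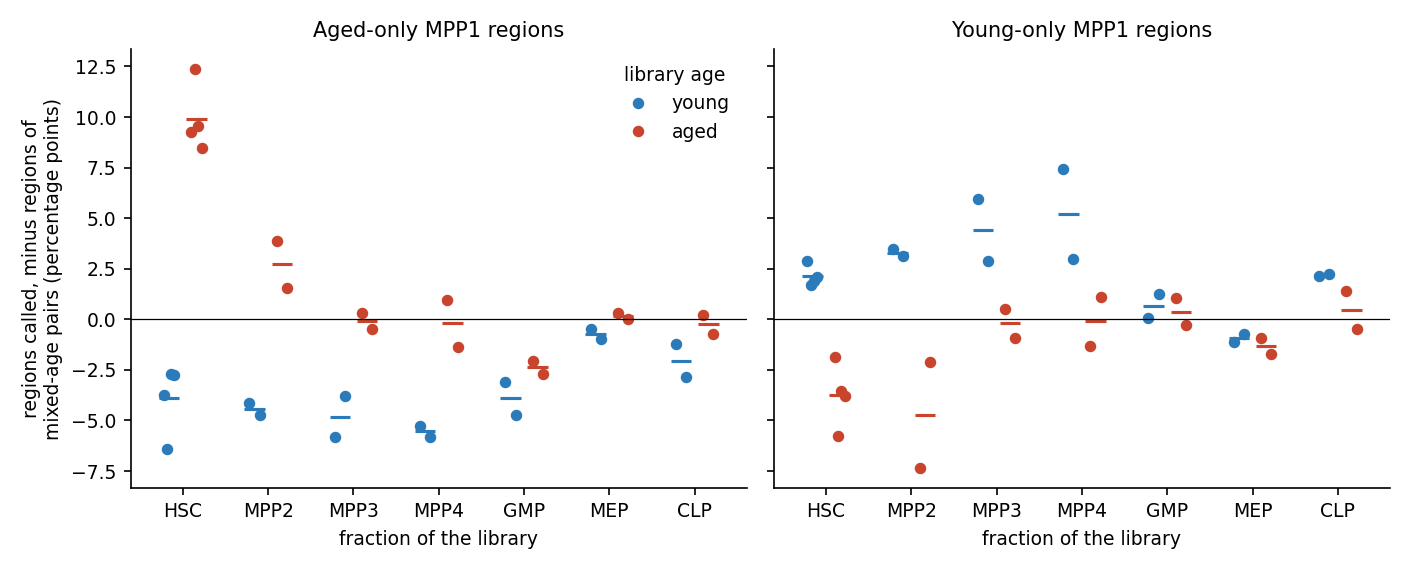
Share of aged-only (left) and young-only (right) MPP1 regions called in each library of the other fractions, minus the share of regions of mixed-age MPP1 pairs (vertical axis, percentage points), by fraction (horizontal axis). Points are libraries, lines are means, blue is young and red is aged. Aged HSC libraries lie at 8.45 to 12.4 for aged-only regions, above all young ones (-6.42 to -2.72), and the order is reversed on the right.

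Shared regions behaved alike on a smaller scale. Of the 666 regions higher in aged MPP1 at an unadjusted p under 0.05, 405 had a peak in all 8 HSC libraries, and their normalized log2 fold enrichment relative to other shared regions was -0.05 to 0.01 in young and 0.09 to 0.13 in aged HSC libraries. The difference was 0.13 (exact permutation test, p = 0.0286), against a median of 0.58 in the MPP1 libraries that chose them. For the regions lower in aged, 317 with a peak in all HSC libraries had 0.05 to 0.14 in young and -0.05 to 0.02 in aged, a difference of -0.10 (exact permutation p = 0.0286, but 0.0571 without aged HSC replicate 3 or 4).

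Regions with the same age pattern in every HSC library were rare. Of the aged-only regions 58 (3.37%) were called in 4 of 4 aged and 0 of 4 young HSC libraries, as were 17 (0.421%) of the mixed-age and 0 of the young-only regions. In the whole catalogue 166 regions (0.338%) had this pattern and 147 (0.299%) the opposite one. The opposite pattern was found in 8 young-only (1.02%), 17 mixed-age (0.421%) and 4 aged-only regions (0.232%), and 3 of the 8 young-only ones belong to the row at Pls3, whose summit bases occur 5 to 7 times in the genome. HSC calls were not used to choose these sets. Among the 58 were the regions at Acadm, Sumf1, Tcp10c, Col24a1, Esr1 (the estrogen receptor alpha), Bcl3 (a nuclear IkB protein), Sgk1, Rora, Tfec and Spry2, and these were picked here from the 58 after their calls were seen.

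The regions that followed age most evenly over all other fractions were examined as values, since they were picked for these calls. For aged-only regions the intron of Sumf1, which encodes the sulfatase-activating enzyme of the endoplasmic reticulum, led with 13 of 16 aged and 1 of 16 young libraries, after fold enrichments of 18.8 and 9.21 in aged MPP1. Acadm had 14 and 3, Tcp10c 13 and 2, and Tap2 11 and 1. Arhgap26, a GTPase-activating protein, and Anxa1, annexin A1, had 9 and 8 aged and 0 young libraries. Zbtb20 and Etl4 had 10 and 2, and Elovl6, a fatty acid elongase, 13 and 5. Of the 12 aged-only regions examined in this way, not all of them named here, 11 had unique 60 bases at the summit. The exception lay near A530032D15Rik, with 13 aged and 4 young libraries, and its summit bases occur 2 times.

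The young-only regions with the most even pattern lay in repeated sequence instead. Of the 17 young-only regions called in at least 8 more young than aged libraries of the other fractions, 14 (82.4%) had summit bases that occur more than once, against 2 of 18 aged-only regions (11.1%) with as large a difference the other way, 4.72% of all young-only regions, 2.38% of aged-only regions and 2.19% of the catalogue. Of the 17, 6 lay in a row on chromosome X, 6 where X and Y share sequence at their distal ends, 2 on chromosome 4 at the related genes Gm21953 and Gm21586, and 3 elsewhere, near Olfr1507, D3Ertd751e and Riok2. When regions with repeated summit bases were left out, a setting chosen after seeing the data, the differences in HSCs were 13.7 (aged-only) and -4.52 points (young-only), both at an exact permutation p of 0.0286, and in MPP2 to MPP4 5.77 and -3.95 points (exact permutation p = 0.00926 and 0.0185).

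The row on chromosome X held 15 regions within 41.4 kb (chrX:75723556-75764954), 62.1 to 103.3 kb from the Pls3 start site, in the stretch known as Dxz4, a tandem repeat that borders large chromatin domains of the inactive X chromosome. Of the 15, 9 were young-only and 1 was aged-only. The 9 young-only regions had fold enrichments between 3.04 and 5.74 in young replicate 1. Between any 2 of the 9 regions, 93.5% to 100% of aligned bases were identical. The capitals below mark the 34 bases that all 9 hold, in 3 of them (GRCm38, plus strand, chrX:75729813-75729936, chrX:75739649-75739772 and chrX:75759040-75759163), to show how alike the units are.
Row region 1: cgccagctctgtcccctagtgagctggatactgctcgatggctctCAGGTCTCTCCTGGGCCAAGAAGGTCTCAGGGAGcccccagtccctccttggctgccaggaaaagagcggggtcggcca
Row region 4: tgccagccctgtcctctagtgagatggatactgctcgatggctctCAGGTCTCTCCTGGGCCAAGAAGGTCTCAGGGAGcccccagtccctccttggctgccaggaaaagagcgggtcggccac
Row region 9: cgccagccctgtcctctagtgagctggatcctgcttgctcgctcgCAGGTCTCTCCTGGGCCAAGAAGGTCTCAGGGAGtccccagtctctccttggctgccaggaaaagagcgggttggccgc

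In the other fractions the 9 regions were called unevenly by age as well. The 10 young libraries of HSCs and MPP2 to MPP4 called 5 to 9 of them and the 10 aged ones 0 to 2, so the ages did not overlap. GMPs had 5 and 7 in young and 2 and 2 in aged, CLPs 2 and 5 in young and 0 and 0 in aged, and MEPs 0 in all 4 libraries. Regions of the row whose summit bases occur once were uneven in part. Elsewhere than in MPP1, the young-only ones at chrX:75749264-75749780 and chrX:75758982-75759368 were called in 14 and 13 young and in 3 and 7 aged libraries, and the one at chrX:75744412-75744943 in 13 young and 8 aged. The one at chrX:75764198-75764676, called in all 4 MPP1 libraries, had 13 young and 15 aged. Sequence identity means that reads from one unit can be placed at another, and how many units these mice carry, or whether the young and aged mice carry the same number, was not tested.

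**Figure D5:**
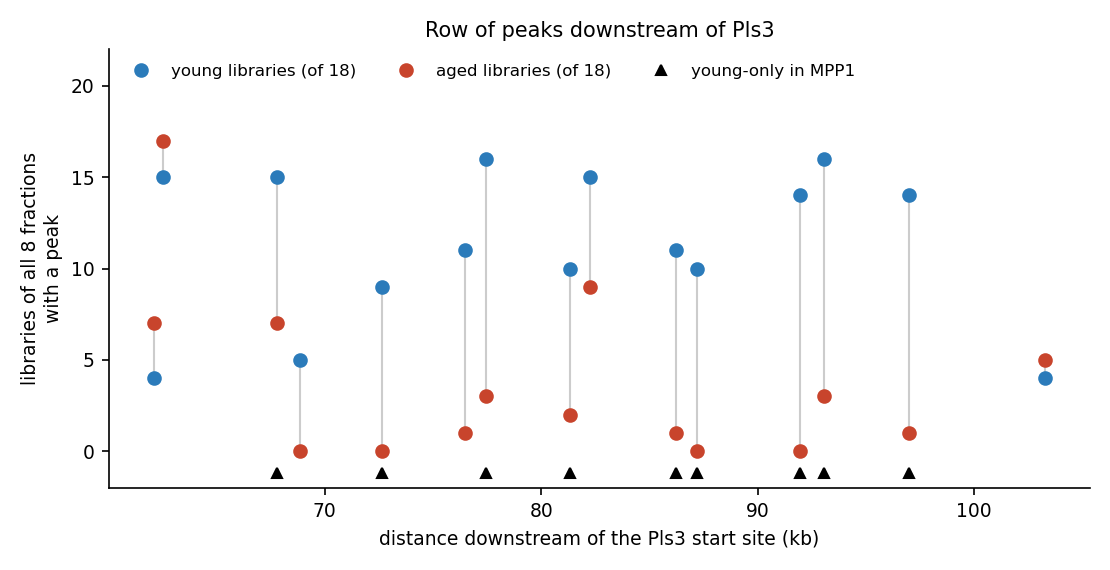
Number of libraries of all 8 fractions with a peak (vertical axis, of 18 young in blue and 18 aged in red) at each region of the row, by distance from the Pls3 start site (horizontal axis, kb). Triangles mark the 9 regions that are young-only in MPP1. There 9 to 16 young and 0 to 7 aged libraries have a peak, and at the region present in all MPP1 libraries 15 and 17 do.

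At the distal end of chromosome Y, 5 young-only regions lay within chrY:90765403-90813091, next to Gm21860, Gm47283 and Gm21748, where X and Y share the pseudoautosomal region. Not all regions there were young-only. An aged-only one lay at chrY:90761246-90761652, also nearest to Gm21860, and was called in 9 aged and 6 young libraries elsewhere. Another, at chrY:90767808-90768076, was called in aged replicate 2 alone within MPP1. The region at chrY:90771205-90771686 had fold enrichments of 9.02 and 8.39 in young MPP1, on 139 and 132 reads, and was called in 8 young and 0 aged libraries elsewhere. Its neighbour at chrY:90772092-90772860 had 8.26 and 10.5 and was called in 11 young and 2 aged libraries. On chromosome X the matching end held a young-only region in an intron of Mid1, with 11.8 and 8.09, called in 11 young and 2 aged libraries. The summit bases of these 3 regions occur 2 to 6 times in the genome. The summit bases of the young-only region at chrY:90812715-90813091 occur once. The mice were female, and the origin of the reads called on Y was not tested. The part of copy number in these differences was not tested either.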

How the data were processed

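ATAC-seq peak lists of the 4 MPP1 libraries were analysed, with those of the 32 libraries of other fractions used for follow-up. According to the methods, single reads of 60 bp from fragments of 240 to 360 bp were aligned to mm10 with Bowtie2, libraries were reduced to equal reads with SAMtools, and the authors called narrow peaks per library with MACS2 2.2.6 at a q-value limit of 0.001. Bowtie2 ran at its default setting, which places a read with several equally good matches at one of them at random, and any later filter on such reads is not given in the sources used here. The deposited values were fold enrichment at the summit (a ratio to background), -log10 p-value, -log10 q-value and a display score derived from the q-value by the authors, which was not used. The peak names of aged replicate 2 hold the word new, whose meaning the sources do not give.

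Peaks were merged at an overlap of 1 bp on the main chromosomes. Reads at each summit were recovered from its fold enrichment and p-value (within 0.02 on the -log10 scale, below a -log10 p-value of 100). Regions were annotated with GENCODE vM21, and sequences were read from RefSeq's GRCm38.p6. Words were searched on both strands within 100 bp of the summit on either side: GAAANNGAA (ISRE), TGACGTCA (CRE), TGANTCA (AP-1), TGCTGA (MAF), TTCNNNGAA (STAT), TGTGGTT (RUNX), CCGGAAGT (ETS), GAGGAAGT (PU.1), AACTGNC (MYB), TTTATNG (HOX), TGATTGAT (PBX), TGACAG (MEIS), CAGCTG (E-box), TTGCGCAA (C/EBP), GGGANTTCC (NF-kB), TGTTTAC (FOX), AGNGGGC (CTCF), GGGCGGG (SP/KLF), CCAAT (NFY) and, for GATA factors, AGATAA. These words can overlap.

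Fold enrichment of shared regions was quantile normalized on the log2 scale and fitted with limma 3.58.1 (R 4.3.3, trend, Benjamini-Hochberg adjustment), which was tested on simulated data. The count model of the study was not run because no counts were used. Follow-up shares were compared by exact permutation of libraries, two-sided and within fractions. Other computing used Python 3.11.15 with numpy 2.4.6, pandas 2.3.3, scipy 1.17.1, Biopython 1.88 and matplotlib 3.10.9. Named regions were the 12 per direction with the highest lower percentile of fold enrichment, the 8 shared regions per direction with the smallest p, and genes nearest to at least 4 one-sided regions. The tests in GMPs, MEPs and CLPs and of shared regions in HSCs, with their alternatives, were added after seeing the data. The libraries were taken by their labels, but this comparison and the gene lists were chosen with earlier results of these data known. P-values measure the spread between libraries, which may be technical. Some members of the gene lists are not reported here by name.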

Additional observations from a re-analysis of the deposited data

Results flagged for a closer look

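In shared regions higher in aged MPP1, 1 HSC library per age stood apart from the other 3 of its group. In young HSCs the values relative to other shared regions were -0.0000584, 0.00874, 0.00660 and -0.0461 (log2), and the gap of the lowest to its neighbour took 0.840 of the range. In aged HSCs they were 0.0936, 0.128, 0.133 and 0.132, and the gap took 0.882 of the range. In each age the library that stood apart was the lowest, replicate 4 in young and replicate 1 in aged HSCs, and the ages did not overlap. With 12 groups looked at, chance alone marks about 1 in 20.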

How the results depend on the processing

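With only peaks of a -log10 q-value of 10 or more, 1079 regions were aged-only and 517 young-only. Leaving out 1 MPP1 library, where 1 call then stands for an age, gave 2907 to 6646 aged-only and 1439 to 3844 young-only regions. With a replicate block, 3 shared regions passed the adjusted threshold in limma and 0 without it. The differences between replicates of both ages had a correlation of 0.0838 across regions, so the replicate numbers were not taken as pairs. Leaving out 1 library gave 1 to 19 shared regions, and the other 5 settings gave 0. Within HSC replicates 1 and 2, and 3 and 4, differences were 15.9 and 11.7 points (aged-only), -6.10 and -5.64 points (young-only), 0.11 and 0.15 log2 (shared, higher in aged) and -0.10 and -0.10 log2 (shared, lower in aged), each at an exact permutation p of 0.333, the smallest that 2 against 2 allow. The aged-only difference in GMPs, MEPs and CLPs was 0.92 points at a -log10 q-value of at least 10 (exact permutation p = 0.0926). The young-only one ranged from -1.12 to -0.49 points without 1 library, with -1.03 (exact permutation p = 0.0463) without aged GMP replicate 1. It was -0.26 points at a -log10 q-value of at least 10 (exact permutation p = 0.620). With the same number of peaks from each library within a fraction it was -0.28 (exact permutation p = 0.546). Without regions of repeated summit bases it was -0.36 (exact permutation p = 0.519). Shared regions lower in aged ranged from -0.12 to -0.09 log2 without 1 HSC library (exact permutation p up to 0.0571), with -0.087 without aged replicate 3 and -0.096 without aged replicate 4. Of 16 named shared regions under 112 alternatives, 0 reversed. These regions were chosen for the smallest p in the same libraries, with both aged values on one side of both young ones. Leaving out 1 library or adding the block could thus hardly turn their sign, so this count is no test of them. The cause of the changes between settings was not tested. Peaks near the calling limit rest on as few as 7 reads, so a missing call does not show closed chromatin.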
